A study of Mus musculus with 6 samples.

Results

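Mast cells store proteases in their secretory granules, bound to the proteoglycan serglycin, and release them when the cell is activated. In the mouse these enzymes mark where a mast cell lives. Mucosal mast cells of the gut epithelium and lamina propria carry the chymases Mcpt1 and Mcpt2. Connective-tissue mast cells, such as those of the submucosa and skin, carry the chymases Mcpt4 and Cma1, the tryptases Tpsab1 and Tpsb2, and carboxypeptidase A3 (Cpa3). The measurements below cover 9 genes, which are these 7 together with Mcpt8, a protease best known from basophils, and Tpsg1, a tryptase held in the membrane. They are 9 of the 53700 genes in the count table and were chosen by their counts in this same comparison, as genes that fell strongly in APC-KI tumours. Their differences between the groups are therefore given as a description, without a test. Cpa3 is grouped with the connective-tissue type here although mucosal mast cells and basophils also make it.

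The tissue was mouse colon tumour, pinched away from the muscle beneath it and sequenced in bulk. The 3 APC-KI tumours came from recovered mice after 6 weeks of doxycycline, an antibiotic used as a genetic switch, which in these mice represses Tcf7l2 throughout the body. The 3 APC-WT tumours came from cachectic mice, which are animals with the wasting syndrome of cancer, after 10 days of doxycycline, with Tcf7l2 expressed from its own gene. Both groups received 100 mg/kg doxycycline in their food. Genotype, length of treatment and wasting all differ between the same groups, so their effects cannot be told apart. Counts of Y-linked genes, given below, were found in APC-WT libraries only, though not in all of them. The sex of the mice may therefore differ in part between the groups too. The labels do not say whether replicates are separate animals, so the p-values measure the spread between these samples, which may in part be technical. In a bulk tumour, fewer mast cells and less RNA per mast cell cannot be told apart either.

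The libraries held 54895823 to 56825956 counts in APC-KI and 51777342 to 63921108 counts in APC-WT. Values per library are CPM, counts scaled to library size, with TMM factors that correct for differences in RNA composition. Tcf7l2, the targeted gene, stood at 4.48, 6.91 and 5.34 CPM in APC-KI and at 44.1, 43.8 and 35.6 CPM in APC-WT (log2 change −2.89 ± 0.19 SE, edgeR adjusted p = 0.00124). Epithelial genes were abundant in both groups, with Epcam at 1671 ± 139 CPM in APC-KI and 1352 ± 86.2 CPM in APC-WT (SD, n = 3 each). The mast cell markers Kit, Fcer1a and Ms4a2 were detected in every library. All 3 APC-KI libraries and APC-WT replicate 3 had 0 counts of 4 Y-linked genes (Ddx3y, Eif2s3y, Kdm5d and Uty), whereas APC-WT replicate 1 had 19164 and replicate 2 had 16055. Of the 19127 genes that passed a filter on low counts, 20.1% passed an edgeR adjusted p of 0.05 in either direction, 7.63% being lower and 12.5% higher in APC-KI. In a further description, every APC-KI library lay below every APC-WT library for 21.5% of genes.

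The stretches of DNA before 4 of the genes show how closely the family is related and where a motif of the mast cell transcription factor Gata2 could lie. RefSeq promoter windows on GRCm38.p6 (250 bases before to 50 bases after the start) were given for 6 of the 9 genes. Capitals mark AGATAA or TGATAA, the GATA motif searched on both strands. Mcpt1 lies at chr14:56017714-56018013 on the plus strand, and Mcpt4, Cma1 and Cpa3 lie on the minus strand at chr14:56062261-56062560, chr14:55944626-55944925 and chr3:20242132-20242431.
Mcpt1: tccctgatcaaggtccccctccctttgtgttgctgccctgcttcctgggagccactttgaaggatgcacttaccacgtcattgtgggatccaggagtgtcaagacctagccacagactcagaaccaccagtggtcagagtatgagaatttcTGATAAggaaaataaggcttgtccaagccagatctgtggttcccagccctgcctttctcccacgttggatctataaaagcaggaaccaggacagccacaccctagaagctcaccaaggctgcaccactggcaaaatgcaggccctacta
Mcpt4: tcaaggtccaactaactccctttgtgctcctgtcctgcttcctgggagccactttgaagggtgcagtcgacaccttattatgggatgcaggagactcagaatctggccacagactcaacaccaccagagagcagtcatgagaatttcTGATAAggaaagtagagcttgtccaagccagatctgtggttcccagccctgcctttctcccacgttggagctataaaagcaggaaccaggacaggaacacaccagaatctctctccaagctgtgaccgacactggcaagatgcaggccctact
Cma1: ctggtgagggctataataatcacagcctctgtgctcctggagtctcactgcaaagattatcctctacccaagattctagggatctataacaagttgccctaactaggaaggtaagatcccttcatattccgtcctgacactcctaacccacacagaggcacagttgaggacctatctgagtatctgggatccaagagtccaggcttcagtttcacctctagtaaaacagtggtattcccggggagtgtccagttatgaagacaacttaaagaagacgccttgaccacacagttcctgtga
Cpa3: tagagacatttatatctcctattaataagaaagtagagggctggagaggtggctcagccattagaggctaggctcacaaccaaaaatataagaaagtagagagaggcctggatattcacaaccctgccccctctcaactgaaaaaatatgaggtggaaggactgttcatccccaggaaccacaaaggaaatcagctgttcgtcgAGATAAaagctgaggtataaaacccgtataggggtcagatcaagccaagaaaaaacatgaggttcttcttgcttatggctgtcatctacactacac
The windows of Mcpt1 and Mcpt4, a mucosal and a connective-tissue chymase, were identical at 249 of 291 aligned bases (85.6%), with a longest shared run of 53 bases, against 7 to 10 bases for every other pair among the 6 windows. Each held 1 TGATAA, 99 bases before the start in Mcpt1 and 103 bases before it in Mcpt4. Cpa3 held 1 AGATAA 46 bases before the start. Tpsg1 held 2 matches, and Cma1 and Mcpt8 held none of these letters in the window. Of all 32851 mouse windows, 18.6% held a match and 3.26% held at least 2. The letters TGTGGT, also searched on both strands, stood in 5 of the 6 windows, Tpsg1 being the exception, and in 16.8% of all windows. A match describes the sequence and is not evidence of a bound site.

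The mucosal chymases Mcpt1 and Mcpt2 were the most abundant of the 9 in APC-WT tumours and were 80.6-fold and 64.0-fold lower in APC-KI tumours. Mcpt1 (ENSMUSG00000022227, GRCm38 chr14:56017971-56020384, plus strand) is a chymase that loosens the epithelial barrier and is released into the gut lumen during worm infection. It had 3.04, 6.96 and 2.35 CPM in APC-KI tumours, against 61.9, 443.1 and 489.4 CPM in APC-WT tumours. The groups did not overlap, and the lowest APC-WT library still held 8.89 times the CPM of the highest APC-KI library. The fitted log2 change was −6.33 ± 0.95 (SE). Mcpt2 (ENSMUSG00000022226, chr14:56042041-56044642, plus strand), its close relative in the same cells, had 2.19, 4.72 and 1.74 CPM in APC-KI, against 33.4, 248.4 and 271.2 CPM in APC-WT. It had the same order of libraries as Mcpt1 within both groups, with APC-KI replicate 2 the highest of its group and APC-WT replicate 1 far below the other APC-WT libraries. The fitted log2 change of Mcpt2 was −6.00 ± 0.93.

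The ratio of Mcpt1 to Mcpt2 counts was steadier than either level. It was 1.39 (95% counting interval 1.08 to 1.78), 1.47 (1.25 to 1.74) and 1.35 (1.03 to 1.77) in APC-KI replicates 1 to 3. In APC-WT replicates 1 to 3 it was 1.85 (1.76 to 1.95), 1.78 (1.75 to 1.82) and 1.80 (1.77 to 1.84). The level of Mcpt1 itself differed 208-fold between the lowest and the highest of the 6 libraries. Every APC-KI ratio lay below every APC-WT ratio, although the counting intervals of APC-KI replicates 1 and 3 reached into those of APC-WT.

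**Figure D1:**
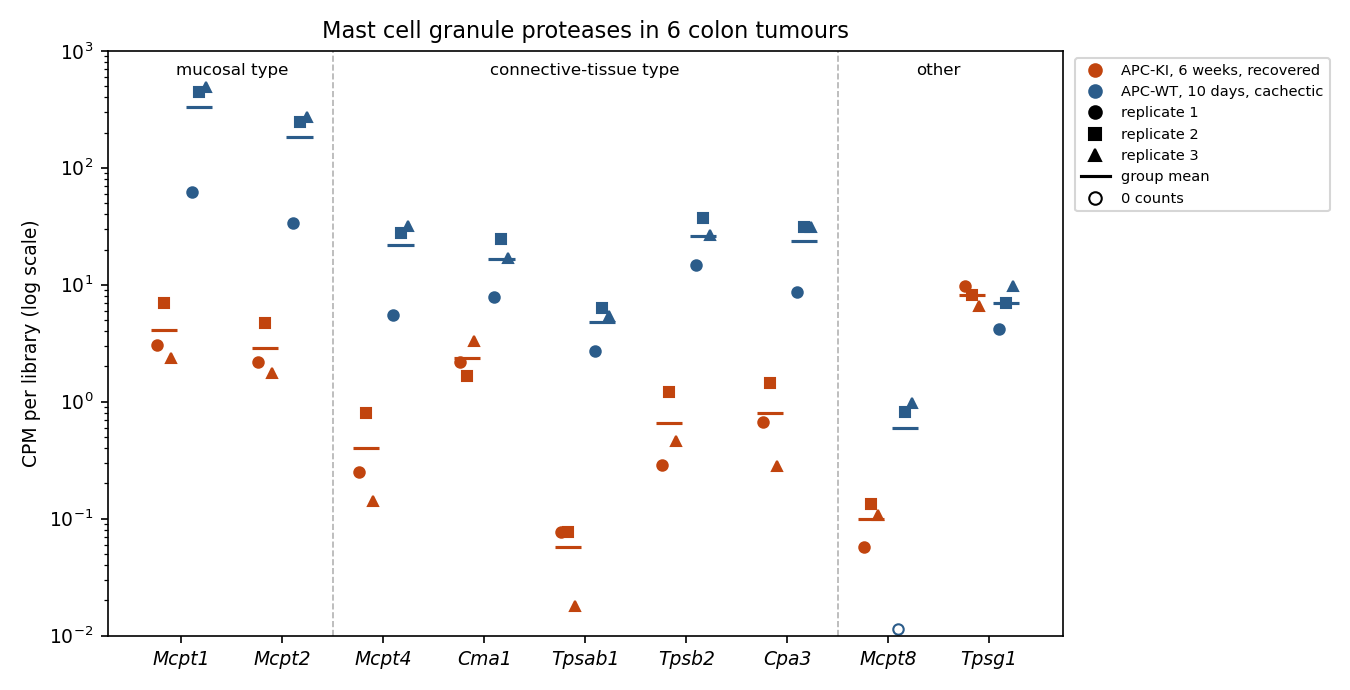
CPM of each of the 9 proteases in each library on a log axis, with APC-KI tumours to the left of APC-WT tumours, the shape giving the replicate, lines the group means and an open circle 0 counts. For 7 proteases every APC-KI point lies below every APC-WT point, while the groups overlap for Mcpt8 and Tpsg1.

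Of the connective-tissue chymases, Mcpt4 fell nearly as far as the mucosal ones and Cma1 far less. Mcpt4 (ENSMUSG00000061068, chr14:56059629-56062313, minus strand), the mouse enzyme closest in activity to human chymase, had 0.250, 0.803 and 0.142 CPM in APC-KI, against 5.46, 27.5 and 31.9 CPM in APC-WT. Its APC-KI values rest on 13, 42 and 8 counts. They lay below every APC-WT library, and the fitted log2 change was −5.76 ± 0.93 (54.3-fold lower in APC-KI). Cma1 (ENSMUSG00000022225, chr14:55941451-55944675, minus strand), a chymase of the alpha branch whose mouse form cuts like an elastase, had 2.17, 1.65 and 3.27 CPM in APC-KI, against 7.89, 24.8 and 16.8 CPM in APC-WT. The gap between the groups was the narrowest of the 7 proteases without overlap, since the lowest APC-WT library held 2.41 times the highest APC-KI library. The fitted log2 change of Cma1 was −2.80 ± 0.47, or 6.95-fold lower in APC-KI.

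Within APC-KI tumours Cma1 and Mcpt4 ran in opposite orders. APC-KI replicate 2, which was highest for Mcpt4, was lowest for Cma1, at 0.503 times the Cma1 CPM of replicate 3 (95% counting interval 0.384 to 0.653) against 5.64 times its Mcpt4 CPM (2.62 to 13.9). The ratio of Cma1 to Mcpt4 counts was 8.69, 2.05 and 23.0 in APC-KI replicates 1 to 3, against 1.45, 0.899 and 0.525 in APC-WT replicates 1 to 3. On a scale per length of transcript, Cma1 averaged 2.17 CPM per kb in APC-KI and 15.1 CPM per kb in APC-WT, while Mcpt4 averaged 0.360 CPM per kb in APC-KI and 19.5 CPM per kb in APC-WT. Cma1 therefore stood above Mcpt4 in the APC-KI means and below it in the APC-WT means.

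The secreted tryptases Tpsab1 and Tpsb2, which cut as rings of subunits held together by heparin, were 81.9-fold and 40.1-fold lower in APC-KI tumours. Tpsab1 (ENSMUSG00000024173, chr17:25343245-25345562, minus strand) had 4, 4 and 1 counts in APC-KI, or 0.0768, 0.0765 and 0.0178 CPM, against 2.73, 6.30 and 5.37 CPM in APC-WT. The lowest APC-WT library held 35.5 times the highest APC-KI library, the widest gap among the 9. Because the APC-KI counts are so few, the ratio is best read from the pooled counts, which were 83.3-fold lower in APC-KI with a 95% counting interval of 43.7 to 183. Tpsb2 (ENSMUSG00000033825, chr17:25366305-25369098, plus strand) had 0.288, 1.21 and 0.463 CPM in APC-KI, against 14.8, 36.9 and 26.8 CPM in APC-WT. Its lowest APC-WT library held 12.3 times its highest APC-KI library. The fitted log2 changes were −6.36 ± 0.56 for Tpsab1 and −5.33 ± 0.62 for Tpsb2.

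Cpa3 (ENSMUSG00000001865, chr3:20215620-20242181, minus strand), a carboxypeptidase that trims peptides from their end and can degrade venom toxins, followed the same order of libraries as Mcpt1 in APC-KI. It had 0.672, 1.45 and 0.285 CPM in APC-KI, against 8.68, 31.1 and 31.1 CPM in APC-WT. The fitted log2 change was −4.88 ± 0.76 (29.4-fold lower in APC-KI), and the lowest APC-WT library held 5.97 times the highest APC-KI library.

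Mcpt8 and Tpsg1 did not share this pattern. Mcpt8 (ENSMUSG00000022157, chr14:56082166-56085273, minus strand) had 3, 7 and 6 counts in APC-KI, or 0.0576, 0.134 and 0.107 CPM, against 0, 46 and 52 counts in APC-WT, or 0, 0.809 and 0.973 CPM. It failed the filter on low counts, so no fitted value is given. APC-WT replicate 1 lay below all APC-KI libraries, with a count of 0 that allows up to 0.04499 CPM at this depth (3 counts, counting error only), and the other APC-WT libraries lay above them. Pooled counts of Mcpt8 were 5.56-fold lower in APC-KI (95% counting interval 3.26 to 10.1), a value that rests on APC-WT replicates 2 and 3. Tpsg1 (ENSMUSG00000033200, chr17:25369273-25374442, plus strand) had 9.76, 8.11 and 6.60 CPM in APC-KI, against 4.21, 7.02 and 9.73 CPM in APC-WT. The groups overlapped, and the fitted log2 change was 0.22 ± 0.32. Its sign turned to −0.04 without APC-WT replicate 1 and to −0.26 without both APC-WT libraries that hold Y-linked counts. Tpsg1 thus goes against the label of a strongly lower protease under which the 9 were gathered.

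In all, 8 of the 9 proteases passed the filter on low counts. For 7 of these every APC-KI library lay below every APC-WT library, beside 21.5% of all genes. Since the genes were picked for this difference, nothing is read from that count. The size of the fold depended on single libraries. Without APC-KI replicate 2, the highest of its group for 5 of the 7, the folds were 123 for Mcpt1, 110 for Mcpt4, 68.9 for Tpsb2 and 49.4 for Cpa3. Without APC-WT replicate 1 they were 114 for Mcpt1, 90.3 for Mcpt2 and 8.78 for Cma1. Over all 6 libraries left out in turn the fold stayed between 61.5 and 123 for Mcpt1 and between 5.22 and 8.78 for Cma1.

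The makeup of the protease pool differed between the groups as well as its size. Summed over the 9 genes the pool was 18.5, 25.1 and 14.98 CPM in APC-KI, against 139, 826 and 883 CPM in APC-WT. The mucosal pair Mcpt1 and Mcpt2 made up 28.2% (Wilson 95% interval 25.5 to 31.2), 46.5% (43.9 to 49.2) and 27.3% (24.4 to 30.4) of the counts in APC-KI. In APC-WT they made up 68.5% (67.6 to 69.5), 83.7% (83.4 to 84.1) and 86.1% (85.8 to 86.4). The mucosal share was thus lower in every APC-KI tumour, at 34.0 ± 10.8% in APC-KI and 79.5 ± 9.54% in APC-WT (SD, n = 3 each), and per length of transcript it was 39.6% in APC-KI and 83.5% in APC-WT. The connective-tissue share overlapped, at 18.7%, 20.6% and 27.9% in APC-KI and at 28.4%, 15.3% and 12.7% in APC-WT. Tpsg1 made up 52.8%, 32.3% and 44.1% of counts in APC-KI, against 3.03%, 0.849% and 1.10% in APC-WT. Its own level was similar, at 8.16 ± 1.58 CPM in APC-KI and 6.985 ± 2.76 CPM in APC-WT (SD). The larger Tpsg1 share in APC-KI thus goes with the fall of the other proteases, and it lowers the mucosal share there. The ratio of mucosal to connective-tissue counts, given next, leaves Tpsg1 out.

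Set against each other, the mucosal and connective-tissue types fell by unlike factors. The mucosal sum averaged 7.001 ± 4.10 CPM in APC-KI and 516 ± 366 CPM in APC-WT (73.7-fold lower in APC-KI). The connective-tissue sum averaged 4.27 ± 0.867 CPM in APC-KI and 92.7 ± 46.6 CPM in APC-WT (21.7-fold lower in APC-KI). Part of this contrast came with Cma1: without it the connective-tissue sum averaged 1.91 ± 1.42 CPM in APC-KI and 76.3 ± 38.7 CPM in APC-WT, or 39.9-fold lower in APC-KI. Cma1 made up 11.7%, 6.55% and 21.9% of the 9 proteases' counts in APC-KI, against 5.67%, 3.00% and 1.90% in APC-WT. The other 4 connective-tissue members had fitted folds of 29.4 to 81.9, a range that holds the 64.0 of Mcpt2 and the 80.6 of Mcpt1. The ratio of mucosal to connective-tissue counts was 1.51 (95% counting interval 1.25 to 1.83), 2.25 (1.95 to 2.61) and 0.979 (0.813 to 1.18) in APC-KI. In APC-WT it was 2.41 (2.30 to 2.52), 5.46 (5.32 to 5.60) and 6.79 (6.61 to 6.98). APC-KI replicate 2 and APC-WT replicate 1 had ratios whose counting intervals overlapped, so the ratio alone did not set these 2 tumours apart.

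**Figure D2:**
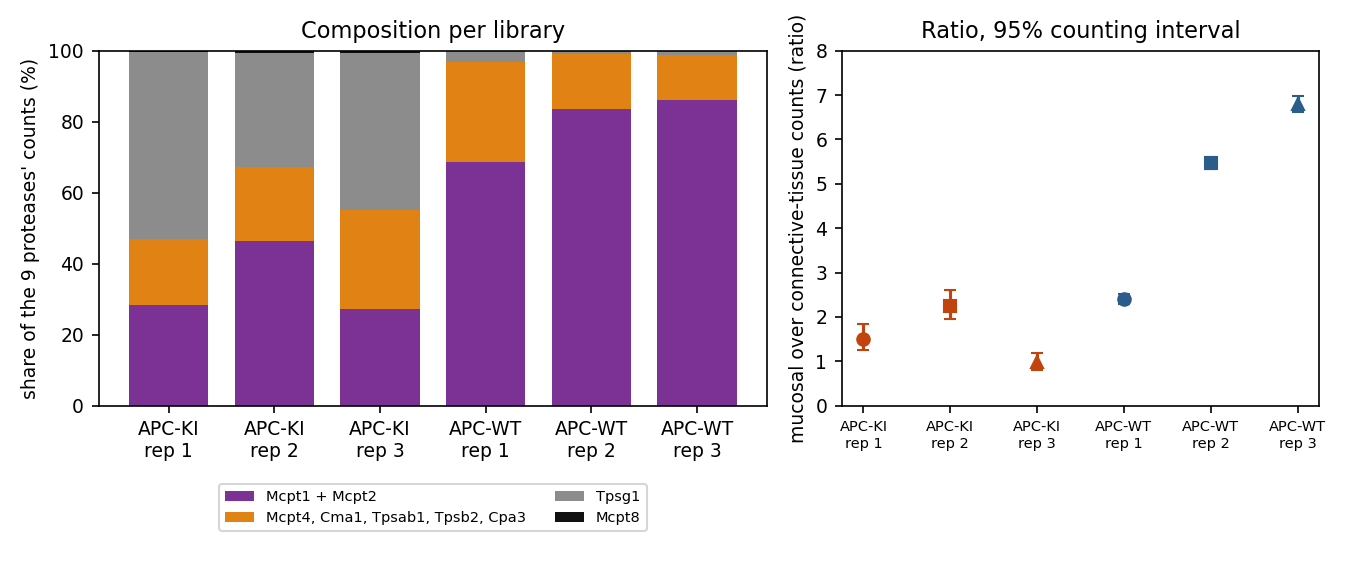
Left, the percentage of the 9 proteases' counts taken by the mucosal pair, the 5 connective-tissue proteases, Tpsg1 and Mcpt8 in each library. Right, the ratio of mucosal to connective-tissue counts with its 95% counting interval, between 0.979 and 2.25 in APC-KI and between 2.41 and 6.79 in APC-WT.

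Differences among tumours of 1 group are also given as a description. A choice by the difference between groups can favour genes that are high in some APC-WT libraries. Among APC-WT tumours, replicate 2 exceeded replicate 1 by a factor of 7.16 for Mcpt1, 7.43 for Mcpt2 and 5.05 for Mcpt4. The factor was smaller for the connective-tissue members Cma1 (3.14), Tpsb2 (2.49) and Tpsab1 (2.31), and was 3.59 for Cpa3. Replicate 3 exceeded replicate 1 by 7.91 for Mcpt1, 8.11 for Mcpt2, 5.85 for Mcpt4, 3.58 for Cpa3, 2.12 for Cma1, 1.97 for Tpsab1 and 1.81 for Tpsb2. Over all genes tested the ratio of replicate 2 to replicate 1 had a median of 1.00 and ran from 0.604 to 1.95 between the 5th and 95th percentiles, and that of replicate 3 to replicate 1 had a median of 1.013 and ran from 0.533 to 2.495. APC-WT replicate 1 was thus low in all 7, and the gap was wider for the mucosal pair and for Mcpt4 than for the other connective-tissue proteases. These factors compare single tumours and have no replicate check.

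In APC-KI tumours replicate 2 was the highest for Mcpt1, Mcpt2, Mcpt4, Tpsb2 and Cpa3. It exceeded replicate 3 by a factor of 2.97 for Mcpt1 (95% counting interval 2.42 to 3.65), 2.61 for Tpsb2 (1.63 to 4.29) and 5.11 for Cpa3 (2.95 to 9.38). Cma1, as given above, ran the other way, and Tpsg1 was 1.23 times higher (1.07 to 1.42). The same tumour was also the highest of its group in Ptprc, the pan-leukocyte gene, at 147 CPM beside 91.9 and 81.5 CPM in replicates 1 and 3. Among APC-WT tumours replicate 1 was likewise the lowest in Ptprc, at 35.4 CPM beside 60.2 and 66.3 CPM in replicates 2 and 3. The part of leukocyte content in these differences was not tested.

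All members but Cpa3 sit in gene clusters, and the levels of their neighbours are given here. Whether position on the chromosome plays a part was not tested. On chromosome 14, measured from the start of Cma1, Cma2 (9.5 kb) and Mcpt9 (85.4 kb), further chymase genes lying among the members, were lower in APC-KI. Cma2 averaged 0.0908 ± 0.0929 CPM in APC-KI and 3.58 ± 2.66 CPM in APC-WT (log2 change −5.24 ± 1.08, edgeR adjusted p = 0.0231). Mcpt9 averaged 0.156 ± 0.0678 CPM in APC-KI and 2.31 ± 1.82 CPM in APC-WT (−3.86 ± 0.87, adjusted p = 0.0279). Neither passed with limma-voom (adjusted p = 0.0587 and 0.0805), nor in edgeR without APC-WT replicate 2 (0.0686 and 0.0800), APC-KI replicate 1 (0.0782 and 0.101) or APC-KI replicate 2 (0.0792 and 0.0758), and Mcpt9 did not pass without APC-KI replicate 3 (0.0581). The log2 change of Cma2 was −6.47 without APC-KI replicate 3, and that of Mcpt9 was −3.18 without APC-WT replicate 3. Transcript windows of 50 bases are shared between Mcpt4 and these 2 genes for 5.48% of Mcpt4, so part of their counts may be reads from Mcpt4 or the reverse. The other members except Cma1, which shares 5.38% of its windows with the unnamed model Gm48934, shared no window of 50 bases with another gene.

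Past Mcpt8 the same locus holds granzymes, proteases of cytotoxic lymphocytes, and these did not follow the chymases together. Gzmb, 317.4 kb from the start of Cma1, averaged 4.82 ± 0.473 CPM in APC-KI and 11.5 ± 4.46 CPM in APC-WT (log2 change −1.26 ± 0.32, edgeR adjusted p = 0.0361). Its adjusted p was 0.0717 with limma-voom, and 0.0647 to 0.113 in edgeR when any library other than APC-WT replicate 1 was left out. Gzmc averaged 2.63 ± 0.639 CPM in APC-KI and 0.771 ± 0.633 CPM in APC-WT and did not pass (1.78 ± 0.73, adjusted p = 0.126). Outside the cluster, before Cma1, Sdr39u1 had a log2 change of −0.35 (adjusted p = 0.0395) and Khnyn one of 0.40 (adjusted p = 0.0566). Past Gzmb, Atp12a (423.6 kb) was higher in APC-KI (2.97 ± 0.38, edgeR adjusted p = 0.00729). In the tryptase cluster on chromosome 17, Tpsg1 starts 174 bases after the end of Tpsb2 on the same strand. The log2 change was nonetheless 0.22 for Tpsg1 and −5.33 for Tpsb2. Cacna1h, the next gene past Tpsg1, was higher in APC-KI (0.68 ± 0.16, adjusted p = 0.0304).

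**Figure D3:**
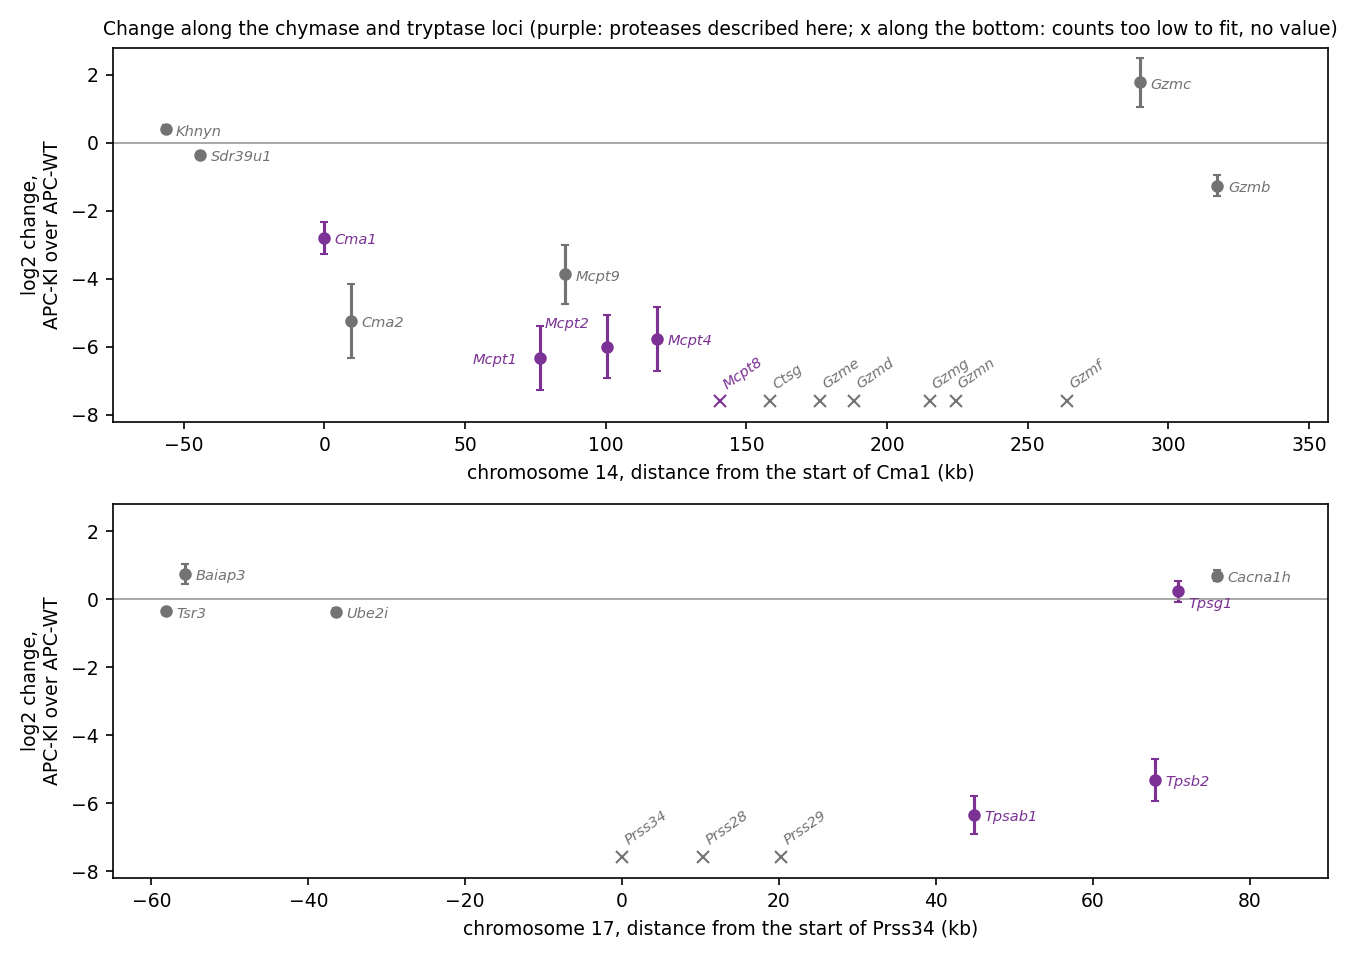
Log2 change (APC-KI over APC-WT) with its SE for each gene of the chymase locus on chromosome 14 and the tryptase cluster on chromosome 17, against distance in kb, crosses marking genes with too few counts. The chymases lie between −2.80 and −6.33, Gzmc and Gzmb at 1.78 and −1.26, and Tpsg1 at 0.22 beside Tpsb2 at −5.33. Genes past Gzmb on chromosome 14, such as Atp12a, are not drawn.

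Across 31 further proteases of these loci and families, 30 were in the table and 15 were tested, of which 4 were lower (Cma2, Mcpt9, Gzma and Gzmb) and 4 higher (Prss22, Prss30, Prss32 and Cpa6) in APC-KI, beside 7.63% lower and 12.5% higher of all genes tested. Their median log2 change was 0.47 beside −0.02 over all genes tested. Prss32, a trypsin-like serine protease, was the one that passed with every library left out in turn, at 408 ± 33.2 CPM in APC-KI and 257 ± 16.6 CPM in APC-WT (0.66 ± 0.09, adjusted p = 0.00732). Prss22, another of them, averaged 48.9 ± 4.13 CPM in APC-KI and 14.4 ± 5.57 CPM in APC-WT (1.77 ± 0.29, adjusted p = 0.0125, and 0.0505 without APC-WT replicate 2). Lower genes numbered 0 without APC-WT replicate 2, APC-KI replicate 1 or APC-KI replicate 2, and higher ones 2 each. Over all genes tested, the share lower also fell in these settings, from 7.63% to 1.89%, 1.53% and 2%. The number higher over all genes fell from 2388 to 788, 973 and 985. Without APC-KI replicate 3 the list had 1 lower gene, beside 8.12% of all genes tested.

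Outside the members, the genes nearest to their mean profile over the 6 libraries were mostly not proteases. Likeness was the root-mean-square difference in centred log2 CPM from the mean profile of the 8 members that passed the filter. That mean includes Tpsg1, which hardly changed, and Cma1, which changed less. It therefore ran from −2.73 to 2.85 only, against −3.64 to 4.04 for Mcpt1. Genes with a middling fold lie nearest to it by construction, so the ranks do not show which genes follow the chymases best. Fcer1a, the chain of the IgE receptor that binds IgE, was nearest of all genes at 0.24, nearer than any of the proteases, of which Cpa3 came closest at 0.38. Ms4a2, the beta chain of the same receptor, was at 0.43. Others among the nearest genes outside the members were Gldn (0.49), the ribosomal pseudogenes Rps15a-ps8 (0.51) and Rps15a-ps6 (0.53), Gp1ba (0.55), Igfals (0.70), Prss56 (0.71) and Wfikkn2 (0.71). Some were near the floor: Rps15a-ps8 had 0, 0 and 0 CPM in APC-KI and at most 1.38 CPM in APC-WT. Gp1ba had 0, 0.134 and 0 CPM in APC-KI and at most 1.46 CPM in APC-WT. Their APC-KI profile was largely set by the prior count of 2 added before taking logs. Among the proteases Tpsb2 stood at 0.66, Mcpt4 at 0.69, Mcpt2 at 0.71, Tpsab1 at 0.72, Mcpt1 at 0.87, Cma1 at 1.09 and Tpsg1 at 2.41. The measure rests on 6 libraries that share their depth and scaling.

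**Figure D4:**
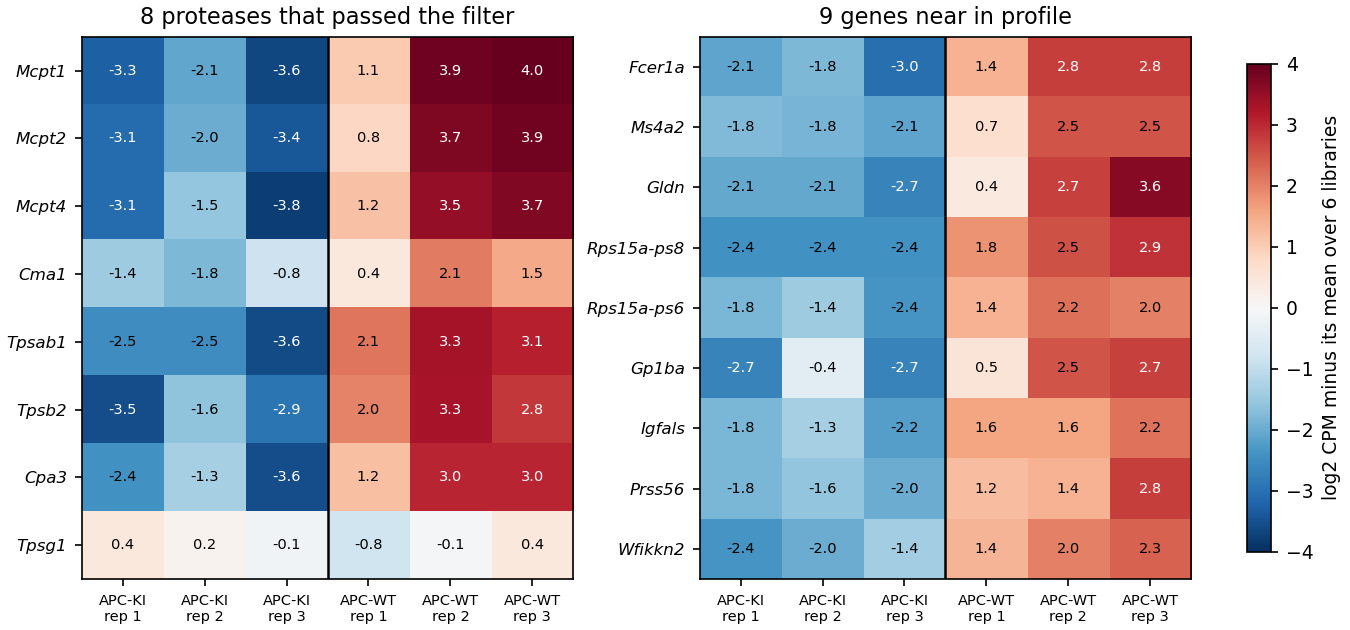
Log2 CPM minus its mean over the 6 libraries, APC-KI tumours left and APC-WT tumours right, for the 8 proteases that passed the filter and for 9 of the genes nearest to their mean profile. Mcpt1 runs from −3.64 to 4.04 and Tpsg1 from −0.79 to 0.42.

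Other mast cell genes were read from a list of 20, of which 19 were tested. In APC-KI 8 were lower and 1 higher, beside 7.63% and 12.5% of all genes tested, and the median log2 change was −0.77 beside −0.02 over all genes. Fcer1a had 0.269, 0.344 and 0.125 CPM in APC-KI, against 3.39, 8.81 and 8.85 CPM in APC-WT (log2 change −4.83 ± 0.55, edgeR adjusted p = 0.00532). Ms4a2 had 0.307, 0.287 and 0.231 CPM in APC-KI, against 1.83, 6.58 and 6.66 CPM in APC-WT (−4.18 ± 0.56, adjusted p = 0.00732). Both receptor chains thus had APC-WT replicate 1 as the lowest of its group, as the chymases did. Slc18a2, which loads histamine and serotonin into granules, averaged 0.356 ± 0.0599 CPM in APC-KI and 2.85 ± 1.373 CPM in APC-WT (−2.99 ± 0.46, adjusted p = 0.00964). Gata2, a transcription factor that mast cells need, averaged 3.11 ± 0.725 CPM in APC-KI and 12.1 ± 2.20 CPM in APC-WT (−1.96 ± 0.23, adjusted p = 0.00596). These 4 passed with each library left out in turn.

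The remaining lower mast cell genes were Mrgprb1, Mrgprb2, Cd200r3 and Kit. Mrgprb2, the receptor through which peptides and drugs trigger connective-tissue mast cells, averaged 0.0699 ± 0.0593 CPM in APC-KI and 0.674 ± 0.206 CPM in APC-WT (log2 change −3.25 ± 0.59, edgeR adjusted p = 0.0151). Without APC-KI replicate 1 this log2 change was −4.11. Its relative Mrgprb1 averaged 0.0625 ± 0.0297 CPM in APC-KI and 0.670 ± 0.348 CPM in APC-WT (−3.39 ± 0.60, adjusted p = 0.0142). Unlike the proteases, neither was lowest in replicate 1 among APC-WT tumours: Mrgprb2 had 0.675, 0.879 and 0.468 CPM and Mrgprb1 0.990, 0.721 and 0.299 CPM in replicates 1 to 3. Kit, the receptor for stem cell factor, on which mast cells depend and which other gut cells also carry, averaged 17.2 ± 4.11 CPM in APC-KI and 29.3 ± 4.34 CPM in APC-WT (−0.77 ± 0.19, adjusted p = 0.0366). Its fold of 1.71 was far smaller than those of the receptor chains. Lower genes numbered 4 without APC-WT replicate 2, 5 without APC-KI replicate 1 and 6 without APC-KI replicate 2. Over all genes tested, the share lower also fell in these settings, from 7.63% to 1.89%, 1.53% and 2%. Lower mast cell genes numbered 7 without APC-WT replicate 3 (6.54% of all genes) or APC-KI replicate 3 (8.12%). They numbered 11 without APC-WT replicate 1 (4.56%). The losses were among Mrgprb1, Mrgprb2, Cd200r3 and Kit.

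Hdc, which makes histamine and is also active in other myeloid cells, was the one mast cell gene that was higher. It averaged 43.6 ± 16.3 CPM in APC-KI and 20.4 ± 1.41 CPM in APC-WT (log2 change 1.10 ± 0.25, edgeR adjusted p = 0.0284). It did not pass without any one of the APC-WT libraries (adjusted p = 0.0815, 0.0867 and 0.0596) or without APC-KI replicate 1 (0.0572). Il1rl1, the receptor for interleukin 33, had 156, 101 and 175 CPM in APC-KI, against 63.8, 227 and 264 CPM in APC-WT, and did not pass (−0.36 ± 0.50, adjusted p = 0.633). Fcer1g (0.57 ± 0.21, adjusted p = 0.0969), Rab27b (0.43 ± 0.16, adjusted p = 0.105) and Hpgds (0.31 ± 0.25, adjusted p = 0.392), all used by several blood cell types, did not pass either.

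**Figure D5:**
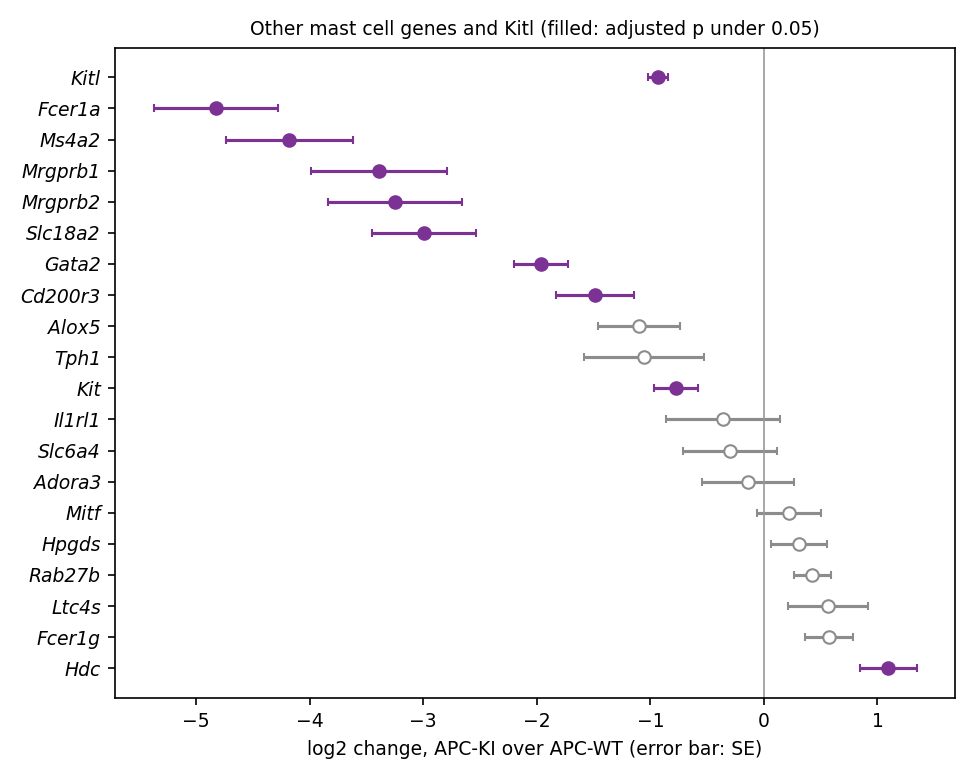
Log2 change (APC-KI over APC-WT) with its SE for 19 further mast cell genes and Kitl, filled where the edgeR adjusted p is under 0.05. Fcer1a lies lowest at −4.83 and Hdc highest at 1.10.

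The granule matrix, on which the proteases are stored, was read from 16 genes for serglycin and heparin synthesis, all tested. Of these 0 were lower and 4 higher in APC-KI, beside 7.63% and 12.5% of all genes tested, with a median log2 change of 0.01. At an unadjusted p of 0.05, edgeR gave 2 lower, and limma-voom gave 0 lower after adjustment. All 16 are active in many cell types. Srgn, the serglycin core protein, averaged 86.1 ± 12.5 CPM in APC-KI and 58.2 ± 4.75 CPM in APC-WT (0.56 ± 0.12, edgeR adjusted p = 0.0229). Ndst2, the sulphotransferase that mast cell heparin needs, averaged 34.1 ± 2.49 CPM in APC-KI and 38.5 ± 0.588 CPM in APC-WT and did not pass (−0.17 ± 0.08, adjusted p = 0.173). Hs3st1, which adds a rare sulphate group to heparan chains, passed with each library left out in turn (1.39 ± 0.18, adjusted p = 0.00658). Higher genes otherwise numbered 1 without APC-WT replicate 2, APC-KI replicate 1 or APC-KI replicate 2. They numbered 2 without APC-WT replicate 1 and 3 without APC-KI replicate 3. Over all genes tested, the number higher also fell, from 2388 to 788, 973, 985, 1567 and 2332 in the same order. DESeq2 called 1 gene of the 16 lower, and 2 were lower when libraries were scaled by their totals only.

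A further list held 20 genes that activate, block or receive the signal of these proteases. Of these 19 were tested, with 0 lower and 10 higher in APC-KI, beside 7.63% and 12.5% of all genes tested, and a median log2 change of 0.96. At an unadjusted p of 0.05, edgeR gave 1 lower, and limma-voom gave 0 lower after adjustment. Ctsc, the peptidase that activates granule serine proteases by removing their leader, averaged 276 ± 67.5 CPM in APC-KI and 142 ± 35.6 CPM in APC-WT (0.96 ± 0.24, edgeR adjusted p = 0.0380). Slpi, a secreted inhibitor of serine proteases, averaged 100.4 ± 19.6 CPM in APC-KI and 25.7 ± 6.51 CPM in APC-WT (1.96 ± 0.22, adjusted p = 0.00532). The serpins Serpina3g (1.48 ± 0.20, adjusted p = 0.00768) and Serpinb1a (0.97 ± 0.15, adjusted p = 0.00993) were also higher, and these 3 inhibitors passed with each library left out. F2rl1, the receptor that tryptase can cleave, averaged 98.3 ± 16.0 CPM in APC-KI and 64.1 ± 6.69 CPM in APC-WT (0.62 ± 0.14, adjusted p = 0.0267). Ctsc and F2rl1 did not pass without APC-WT replicate 1 or 2 or APC-KI replicate 1 or 2 (adjusted p between 0.0715 and 0.108). Higher genes numbered 3 without APC-WT replicate 2, 5 without APC-KI replicate 2, 6 without APC-KI replicate 1 and 7 without APC-WT replicate 1. Over all genes tested, the number higher also fell, from 2388 to 788, 985, 973 and 1567 in the same order. The number lower was 1 without APC-KI replicate 3, and 1 with DESeq2.

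Among 21 genes for mast cell growth and homing, 17 were tested. In APC-KI 1 was lower (Kitl) and 4 were higher, beside 7.63% lower and 12.5% higher of all genes tested. Kitl, the stem cell factor that mast cells need to live, had 145, 123 and 142.5 CPM in APC-KI, against 276, 249 and 257 CPM in APC-WT. The groups were well apart and tight within themselves (−0.93 ± 0.09, edgeR adjusted p = 0.00395), and Kitl passed with each library left out. Unlike the proteases, Kitl was not low in APC-WT replicate 1. Itga4, Cxcr2, Itgb6 and Ccl2, which serve the entry of mast cell progenitors and other leukocytes or their maturation in the epithelium, were higher. The list's median log2 change was 0.73 beside −0.02 over all genes tested. None of these 4 passed without APC-WT replicate 2 (adjusted p between 0.0517 and 0.121), Itgb6 and Ccl2 did not without APC-KI replicate 1 or 2 (0.0984 to 0.112), and Ccl2 did not without APC-WT replicate 1 (0.0879). Il9, a growth factor of mucosal mast cells, was too low to test, at 0 CPM in all 3 APC-KI libraries and 0.0750, 0.193 and 0.729 CPM in APC-WT.

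Markers of other cells that share some of these genes were read from 3 further lists, each beside the 7.63% of all genes tested that were lower and the 12.5% that were higher in APC-KI. Of 8 basophil genes 5 were tested, 2 being lower (Fcer1a and Cd200r3, which mast cells share) and 1 higher in APC-KI (Itga2, which epithelium also expresses). Prss34, a basophil protease, summed to 7 counts in APC-KI and 17 counts in APC-WT, and Il3ra did not pass (−0.03 ± 0.20, adjusted p = 0.925). The summed level of the basophil list was 166 to 192 CPM in APC-KI and 71.4 to 136 CPM in APC-WT, most of it Itga2. Of 10 eosinophil genes 6 were tested, with Alox15 lower (−1.67 ± 0.22, adjusted p = 0.00731) and Prg2 higher (3.27 ± 0.36, adjusted p = 0.00529). That list summed to 17.5 to 22.8 CPM in APC-KI and 34.7 to 58.2 CPM in APC-WT, most of it Alox15 in every library. Its defining gene Epx, which did not pass the filter, was near 0 in both groups, at 0, 0 and 0.107 CPM in APC-KI and 0.225, 0.264 and 0.0561 CPM in APC-WT. Ccr3 (2.22 ± 0.64, adjusted p = 0.0529), Siglecf (0.98 ± 0.44, adjusted p = 0.148) and Ear2 (0.72 ± 0.58, adjusted p = 0.397) did not pass. Of 20 genes of other leukocytes, all tested, 0 were lower (0 also at an unadjusted p of 0.05, and 0 by DESeq2 or limma-voom) and 8 were higher in APC-KI, with a median log2 change of 1.04 and sums of 1278 to 2544 CPM in APC-KI and 499 to 569 CPM in APC-WT. Jchain, of antibody-secreting cells, made up most of the APC-KI sums (3.30 ± 0.38, adjusted p = 0.00609). The higher leukocyte genes numbered 2 to 4 without APC-KI replicate 1, APC-KI replicate 2 or APC-WT replicate 2. Over all genes tested, the number higher also fell, from 2388 to 973, 985 and 788 in the same order. The part of these leukocytes in the protease levels was not tested.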

How the data were processed

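RNA sequencing counts of 6 mouse colon tumours were used, 3 APC-KI and 3 APC-WT, grouped by the sample titles. Per the labels' protocols, RNA was DNase-treated on a column and a TruSeq Stranded mRNA kit was used for the libraries. Per the submitters' processing notes, the tools included STAR, DESeq2, cutadapt 2.5 and Trim Galore 0.6.4 and the builds were GRCm38 and mm10. Which program counted the reads, on which annotation release and with which strand setting is not given in the sources used here. What the authors deposited is a table of raw whole-number counts for each Ensembl gene, per the file headers and values. Symbols, lengths and gene positions came from GENCODE M21 (GRCm38). The identifier versions in the table equalled those of M21 for 35 genes, so another release was counted, and gene positions may differ slightly from those counted. Reads from near-identical stretches of related genes may be split or lost in ways that depend on the counter.

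Genes were kept with filterByExpr, scaled with TMM and tested with edgeR 4.0.16 in R 4.3.3 (estimateDisp, robust glmQLFit, glmQLFTest, group as the sole term). A fold change sets APC-KI over APC-WT. The Benjamini-Hochberg adjustment of p-values ran over 19127 genes, and the threshold was 0.05. CPM are counts over the TMM-scaled library size, and SE of a log2 change is its size divided by the square root of the F statistic. Intervals on ratios of counts are exact binomial, those on shares are Wilson, both at 95%, and they cover counting error only. Libraries of a group differed by more than sampling noise (chi-square of 40.1 to 114 per gene), so none was taken as a repeat deposit of another; this does not show that they are separate animals. The fit was tested on simulated counts with known changes. Profiles used log2 CPM with a prior count of 2.

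The 9 proteases, the gene lists and the lists' tests were chosen with earlier results of these data known. Named genes were the 9, Tcf7l2, up to 8 called genes of smallest p and up to 4 others of highest CPM from each list, of which some are given by count only, and the 10 genes nearest in profile, of which 1 is not reported here. The genes beside the 2 clusters were named for their position. Alternatives were DESeq2 1.42.0, limma-voom (limma 3.58.1), RLE factors, library totals, no filter, a filter of CPM above 1 in at least 3 libraries, the replicate number as a block, each library left out in turn, and the 4 libraries without Y-linked counts.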

Additional observations from a re-analysis of the deposited data

How the results depend on the processing

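The fold changes of the 7 lower proteases kept their direction under every alternative run, and Tpsg1 turned as given above. For these 7 every APC-KI library lay below every APC-WT library, so leaving out libraries could not reverse them. They were also chosen for this difference, and nothing is read from the kept direction. With library totals the median log2 change of all genes was −0.13 instead of −0.02, and lower genes numbered 2844. Over all genes 2388 were higher and 1459 lower in APC-KI. DESeq2 gave 2388 lower, and the 4 libraries without Y-linked counts, where the lone APC-WT tumour takes its spread from the APC-KI tumours, gave 178 higher and 152 lower. Leaving out each library in turn gave 788 to 2542 higher and 300 to 1595 lower.

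Of the lists, other mast cell genes had 8 lower and 1 higher (3 and 0 without the Y-linked libraries, 2 higher with DESeq2, 4 to 11 and 0 to 1 over left-out libraries). Granule matrix genes had 0 lower and 4 higher (2 lower with library totals, 1 lower with DESeq2, 1 higher without the Y-linked libraries, 1 to 4 higher over left-out libraries). Locus and family proteases had 4 lower and 4 higher (0 lower with limma-voom, 2 lower with the stricter filter, 1 higher without the Y-linked libraries, 0 to 3 lower and 2 to 4 higher over left-out libraries). Genes of activation, inhibition and targets had 0 lower and 10 higher (1 lower with DESeq2, 0 higher without the Y-linked libraries, 0 to 1 lower and 3 to 11 higher over left-out libraries). Growth and homing genes had 1 lower and 4 higher (8 higher with DESeq2, 0 without the Y-linked libraries, 1 to 2 lower and 0 to 6 higher over left-out libraries). Basophil genes had 2 lower and 1 higher (0 higher with no filter, 1 lower and 0 higher without the Y-linked libraries, 1 to 3 lower and 0 to 1 higher over left-out libraries). Eosinophil genes had 1 lower and 1 higher (2 higher with DESeq2, limma-voom or no filter, 1 to 2 lower over left-out libraries). Other leukocyte genes had 0 lower and 8 higher (13 higher with DESeq2, 1 without the Y-linked libraries, 2 to 9 over left-out libraries). The counts of higher mast cell, basophil and eosinophil genes and of lower leukocyte genes were added after seeing the data. The causes of these moves were not tested.

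Samples with the same replicate number did not deviate together over all genes tested (correlations 0.03, −0.07 and −0.18). Such a correlation would miss a pairing that moves few genes, and the labels do not mention pairing. With the replicate number as a block, 1195 genes were higher and 465 lower, with 7 mast cell genes lower and 0 higher, 1 matrix gene higher, 2 locus and family proteases lower and 2 higher, and 1 basophil gene lower and 0 higher.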
